A study of Rattus norvegicus with 12 samples.

Results

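Wt1, Krt8, Krt18, Krt19, Slpi and Msln are 6 genes used as markers of mesothelium and of keratin-bearing epithelia, and their signals were followed here in cultured rat preadipocytes. Every probe set was taken whose platform annotation names exactly 1 gene symbol and whose symbol is among the 6. This gave 7 probe sets of 15866 and 6 genes of the 10411 genes on the array. Wt1 had 2 probe sets and each other gene had 1. Of the 7 probe sets, 5 were bright enough to pass the filter on low signals that was applied to all probe sets, and those of Krt18 and Krt19 were not.

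The study compared fat cell precursors from 2 depots at 2 ages on 12 one-colour expression arrays. The animals were male Brown Norway rats, reared behind a barrier and free of specific pathogens, 3 of them 3 months old (young) and 3 of them 30 months old (old). Perirenal fat, which lies around the kidney, and epididymal fat, which lies beside the testis and epididymis, were taken from each of the 6 rats. Each age thus had 3 arrays of perirenal and 3 of epididymal cells, and the arrays of a rat share its number. In every group the stromal cells were released with collagenase, plated, lifted, replated and grown until confluent, and no sort by surface marker is named in the sources used here, so each culture is a mixed stromal population. The labels state that macrophage markers were alike across ages and depots.

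Mesothelium is the flat cell layer that covers the abdominal organs and the surface of visceral fat pads. Its cells carry keratin filaments and mesothelin on their surface and express the zinc finger factor WT1, which also marks the mesenchyme of the developing kidney and gonad and stromal cells of visceral fat. Keratins 8 and 18 pair in the filaments of simple epithelia, with keratin 19 as a further type I partner, and SLPI is a secreted inhibitor of leukocyte serine proteases made by epithelia and by some inflammatory cells.

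The values are MAS5 signals on a linear scale, and every array had been scaled to nearly the same trimmed mean (500.1 to 500.2). Median signals ran from 195 to 202 over the perirenal and from 153 to 176 over the epididymal arrays. The 3' to 5' signal ratio of the beta-actin control, which rises as the labelled RNA gets shorter, lay at 0.902 to 1.11 in perirenal and at 5.25 to 55.0 in epididymal samples. The signal of dap, a bacterial RNA added as a control, did not exceed 2.3 on any perirenal array and lay between 493 and 766 on every epididymal one. Depot and these controls separated the same arrays, so for every depot difference that follows the depot and the labelling of the RNA cannot be told apart. In these bulk cultures fewer cells of a type and less RNA per cell cannot be told apart either. Precision is limited by the 3 arrays per group, and p-values cover the spread between rats.

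**Figure D1:**
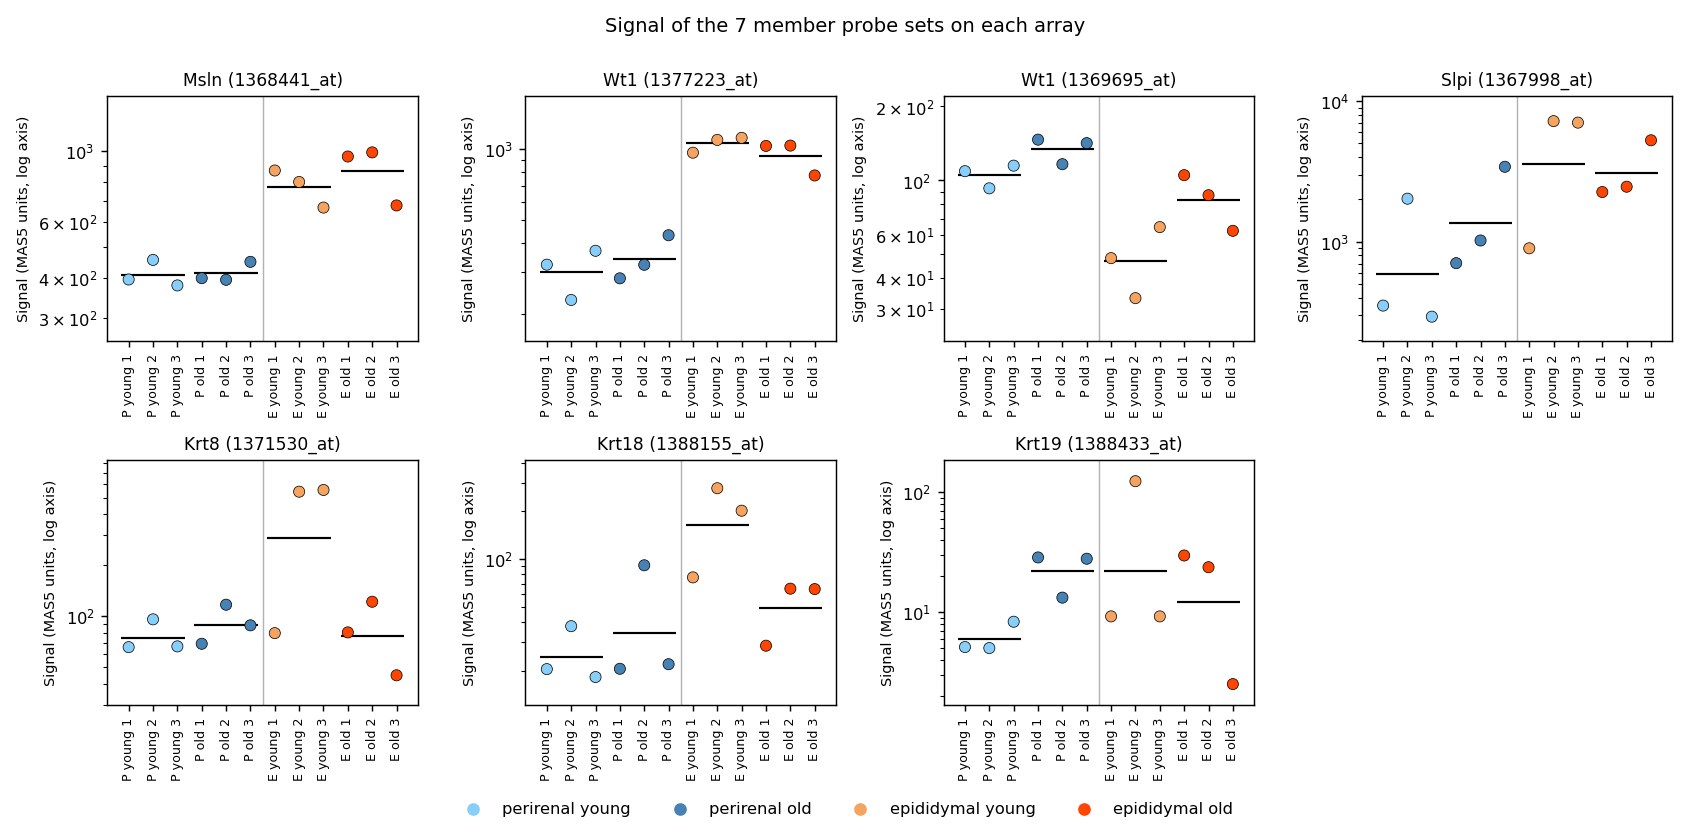
Signal of each of the 7 member probe sets (vertical log axes, MAS5 units) on the 12 arrays, perirenal (P) at left and epididymal (E) at right of each panel, coloured by group; horizontal bars are geometric means of 3 arrays. Msln and Wt1 1377223_at separate the depots on every array, whereas Krt8, Krt18 and Slpi are highest on the arrays of young epididymal rats 2 and 3.

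Between depots, Msln and the brighter Wt1 probe set were lower in perirenal than in epididymal cells of every rat, by about the same amount at both ages. Slpi was also lower in perirenal cells on average, with a spread between rats far wider than that of Msln. Krt8 and Krt18 were lower in perirenal cells of the young rats, and the 3 keratins had no depot difference past the threshold in the old rats. Of the 5 member probe sets tested, 1 was higher and 3 were lower in perirenal cells, averaged over ages (limma, Benjamini-Hochberg adjusted p under 0.05). Of all 11106 probe sets tested, 51.7% passed this test, 30.2% as higher and 21.4% as lower. After quantile normalization this split turned from 3357 higher and 2381 lower to 2531 higher and 2863 lower, and the median difference over all probe sets from 0.08 to -0.03. In young rats 1 member probe set was higher and 4 were lower, against 34.9% of all probe sets called (20.0% higher and 14.9% lower). In old rats 0 were higher and 2 were lower, against 31.8% called (19.2% higher and 12.5% lower).

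Msln codes for mesothelin, a surface glycoprotein anchored by a lipid tail. Its signal (1368441_at) was 395, 455.5 and 379 in perirenal cells of young rats 1 to 3 and 399, 394 and 449 in those of old rats 1 to 3. In epididymal cells it was 870.2, 801 and 665 in the young rats and 963, 992 and 676 in the old rats. All 6 perirenal signals lay below all 6 epididymal signals, and within each depot the young and old ranges overlapped. The signal was 1.99-fold lower in perirenal cells averaged over ages (log2 difference -0.99 ± 0.12 SE, n = 6 arrays per depot, limma adjusted p = 2.89e-05), with -0.92 in young rats (adjusted p = 0.00145) and -1.06 in old rats (adjusted p = 0.000755). Over all tested probe sets, 10.8% had every perirenal signal below every epididymal signal, in the same direction as Msln. With the actin ratio as a covariate the difference was -1.09 with an adjusted p of 0.0835, in a fit where only 274 probe sets passed, and the calls were also lost in young (-1.02, adjusted p = 0.0957) and old rats (-1.17, adjusted p = 0.154).

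Wt1 was measured by 2 probe sets that moved in opposite directions between depots. The brighter, 1377223_at, read 324, 229 and 371 in young perirenal, 283, 323 and 431.5 in old perirenal, 967.5, 1096 and 1119 in young epididymal and 1034, 1037 and 774 in old epididymal cells. Again no perirenal signal reached an epididymal one, as in 10.8% of tested probe sets over all 12 arrays (21.5% within young and 18.8% within old rats), and the ages overlapped within each depot. It was 3.11-fold lower in perirenal cells (-1.64 ± 0.15 SE, n = 6 arrays per depot, adjusted p = 2.58e-06), with -1.81 in young and -1.46 in old rats (adjusted p = 5.8e-05 and 0.000329). The actin ratio as covariate gave -1.53 with an adjusted p of 0.0526, with -1.71 in young rats, which still passed (adjusted p = 0.0327), and -1.35 in old rats, which did not (adjusted p = 0.17).

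The dimmer Wt1 probe set, 1369695_at, read 109, 92.9 and 115 in young perirenal and 147, 116.5 and 142 in old perirenal cells. It read 48.3, 33.2 and 64.6 in young epididymal and 105, 87.1 and 62.4 in old epididymal cells. It was higher in perirenal cells of all 6 rats, where the brighter probe set was lower in all 6. At each age its perirenal signals all lay above its epididymal ones, as did those of 28.3% of tested probe sets in young and 28.5% in old rats. The difference averaged over ages was 0.93 ± 0.22 SE (1.90-fold higher, adjusted p = 0.00373), with 1.16 in young rats (adjusted p = 0.0127) and 0.69 in old rats (adjusted p = 0.108). The call in young rats was lost without young rat 1 (1.16, adjusted p = 0.0627) or young rat 2 (1.00, adjusted p = 0.0608). After quantile normalization the difference was 0.40 averaged over ages (adjusted p = 0.173) and 0.62 in young rats (adjusted p = 0.168), while that of the brighter probe set kept its side of the threshold there. With the actin ratio as a covariate both calls were lost as well (1.46, adjusted p = 0.162, and 1.66, adjusted p = 0.114). The probe sets correlated with r = 0.557 over the 6 perirenal arrays (rho = 0.257, exact permutation p = 0.25) and r = -0.0587 over the 6 epididymal arrays (rho = 0.0286, exact p = 0.904). Dim probe sets as a class read higher on perirenal arrays, with lower quartiles of 58.1 to 61.7 there and 33.0 to 46.1 on epididymal arrays. The part of this in the signals of the dimmer Wt1 probe set was not tested. Where on the Wt1 transcript each lies was not analysed here, so a direction for Wt1 between depots depends on the probe set.

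Slpi (1367998_at) ranged widely among rats within each depot. The signal was 352, 2024 and 293 in young perirenal, 704, 1021 and 3414 in old perirenal, 898, 7210.0 and 7036 in young epididymal and 2258, 2463 and 5269 in old epididymal cells. In each rat the perirenal signal was below the epididymal one, but the depots overlapped, since young rat 1 had only 898 in its epididymal cells. Within perirenal cells the SD of log2 signal was 1.39, against a median of 0.224 over all tested probe sets, and 99.8% of probe sets had a lower SD. Within epididymal cells it was 1.18 against a median of 0.285.

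Averaged over ages Slpi was 3.71-fold lower in perirenal cells (-1.89 ± 0.60 SE, n = 6 arrays per depot, adjusted p = 0.0184), with -2.59 ± 0.85 in young rats (adjusted p = 0.0315) and -1.19 ± 0.85 in old rats (adjusted p = 0.306). The averaged call was lost without young rat 3 (-1.39, adjusted p = 0.104), old rat 1 (-1.77, adjusted p = 0.0528) or old rat 2 (-1.87, adjusted p = 0.0586). The call in young rats was lost without young rat 3 (-1.59, adjusted p = 0.282), without old rat 2, which enters through the shared spread (adjusted p = 0.0519), and without the intensity trend (adjusted p = 0.0533). With the actin ratio as a covariate both calls were lost (-1.67, adjusted p = 0.575, averaged over ages and -2.39, adjusted p = 0.402, in young rats).

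Krt8 and Krt18 lie next to each other on chromosome 7, with Krt78 before and Eif4b after them in RefSeq's order of protein-coding genes. Krt8 codes for a type II and Krt18 for a type I keratin, and each needs a partner of the other type to form a filament. Since the signals of the genes are compared array by array in what follows, a stretch before the start of each is shown from RefSeq (GRCr8). The first stretch is chr7:135010420-135010589 on the minus strand, from 250 to 81 bases before the RefSeq start of Krt8. The second is chr7:135035918-135036167 on the plus strand, the 250 bases before that of Krt18. Capitals mark TATAAA on both strands in Krt8, where the matches overlap, and GGGCGG in Krt18.
Krt8: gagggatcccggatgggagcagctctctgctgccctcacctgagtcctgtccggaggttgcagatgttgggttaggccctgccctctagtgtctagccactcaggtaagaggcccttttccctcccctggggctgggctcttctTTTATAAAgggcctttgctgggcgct
Krt18: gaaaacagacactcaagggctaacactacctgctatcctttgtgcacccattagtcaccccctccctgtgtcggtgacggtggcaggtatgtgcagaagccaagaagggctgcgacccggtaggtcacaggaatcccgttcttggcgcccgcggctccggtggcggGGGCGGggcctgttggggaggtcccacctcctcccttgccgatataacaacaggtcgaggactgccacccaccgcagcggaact

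Both strands of the window from 250 bases before to 50 bases after each start were searched for TATAAA, for GGGCGG (a GC box) and for GCGTGGGNG, a site of the EGR and WT1 type. TATAAA was found in Krt8 and GGGCGG in Krt18, and of 33469 promoters of this length 14.2% and 33.1% held these letters. GCGTGGGNG, present in 1.66% of promoters, was in none of the 3 member promoters in the table, which were those of Wt1, Krt8 and Krt18. A match is a run of letters and was not tested as a site.

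Krt8 (1371530_at) had similar signals on 10 of the arrays and far higher ones on 2. It read 65.8, 96.0 and 66.5 in young perirenal, 68.9, 117 and 88.5 in old perirenal, 79.6, 543 and 556 in young epididymal and 80.4, 122 and 44.9 in old epididymal cells. The high arrays are those of epididymal cells from young rats 2 and 3, whose perirenal signals were 96.0 and 66.5. Averaged over ages Krt8 did not pass the threshold (-0.86 ± 0.43 SE, adjusted p = 0.113). In young rats it was 3.85-fold lower in perirenal cells (-1.95 ± 0.61 SE, n = 3 arrays per depot, adjusted p = 0.0258) and in old rats the difference was 0.23 (adjusted p = 0.797). Without young rat 2 or young rat 3 the value in young rats was -1.67 or -1.39 and did not pass (adjusted p = 0.123 and 0.202), and with the actin ratio as a covariate it was -1.09 (adjusted p = 0.596). In the other direction, the averaged difference passed without young rat 1 (-1.27, adjusted p = 0.00371) and after quantile normalization (-1.36, adjusted p = 0.0135).

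Krt18 (1388155_at) read 20.4, 37.9 and 18.2 in young perirenal, 20.5, 91.2 and 21.9 in old perirenal, 76.6, 277 and 200.4 in young epididymal and 28.6, 65.1 and 64.7 in old epididymal cells. Its highest arrays were the same as those of Krt8, and its perirenal maximum, in old rat 2, was also the perirenal maximum of Krt8. In young rats every perirenal signal lay below every epididymal one, an order that 21.5% of tested probe sets had. Krt18 is not among those tested probe sets. Its geometric mean of 50.8 was under the filter level of 56.3, so it was fitted without that filter, where 43.7% of 15866 probe sets were called between depots (15.5% lower), 26.1% in young rats (10.1% lower) and 24.7% in old rats (8.53% lower). There it was lower in perirenal cells averaged over ages (-1.63 ± 0.46 SE, adjusted p = 0.012) and in young rats (-2.75 ± 0.65, adjusted p = 0.00836), and not past the threshold in old rats (-0.52 ± 0.65, adjusted p = 0.589). The averaged call was lost without young rat 3 (-1.45, adjusted p = 0.0598) or old rat 3 (-1.37, adjusted p = 0.0619), and the call in young rats without young rat 3 (-2.39, adjusted p = 0.0855). Both were lost with the actin ratio as a covariate (-1.12, adjusted p = 0.643, and -2.27, adjusted p = 0.321).

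Krt19 (1388433_at) was near the bottom of the signal range. It read 5.1, 5.0 and 8.3 in young perirenal, 28.6, 13.2 and 27.9 in old perirenal, 9.2, 124 and 9.2 in young epididymal and 29.7, 23.7 and 2.5 in old epididymal cells. Only the epididymal array of young rat 2 exceeded 30, and on the other 11 arrays the signal was between 2.5 and 29.7. In the fit without the filter its depot difference was -0.51 ± 0.75 SE (adjusted p = 0.608), and its difference in young rats was -1.88 ± 1.06 (adjusted p = 0.209). Whether signals this low lie above background was not analysed here.

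The arrays of epididymal cells from young rats 2 and 3 stood apart in Krt8 and Krt18, so the fits were repeated without them, a choice made after the data were examined. Krt8 then had a depot difference of 0.07 averaged over ages (adjusted p = 0.877) and -0.09 in young rats (adjusted p = 0.924). Slpi had -0.90 averaged over ages (adjusted p = 0.254) and Krt18 -1.09 (adjusted p = 0.14). Msln and the brighter Wt1 probe set still passed, at -1.08 (adjusted p = 0.000208) and -1.57 (adjusted p = 9.04e-05). In that fit young epididymal cells are 1 array, assumed to vary like the other groups.

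**Figure D2:**
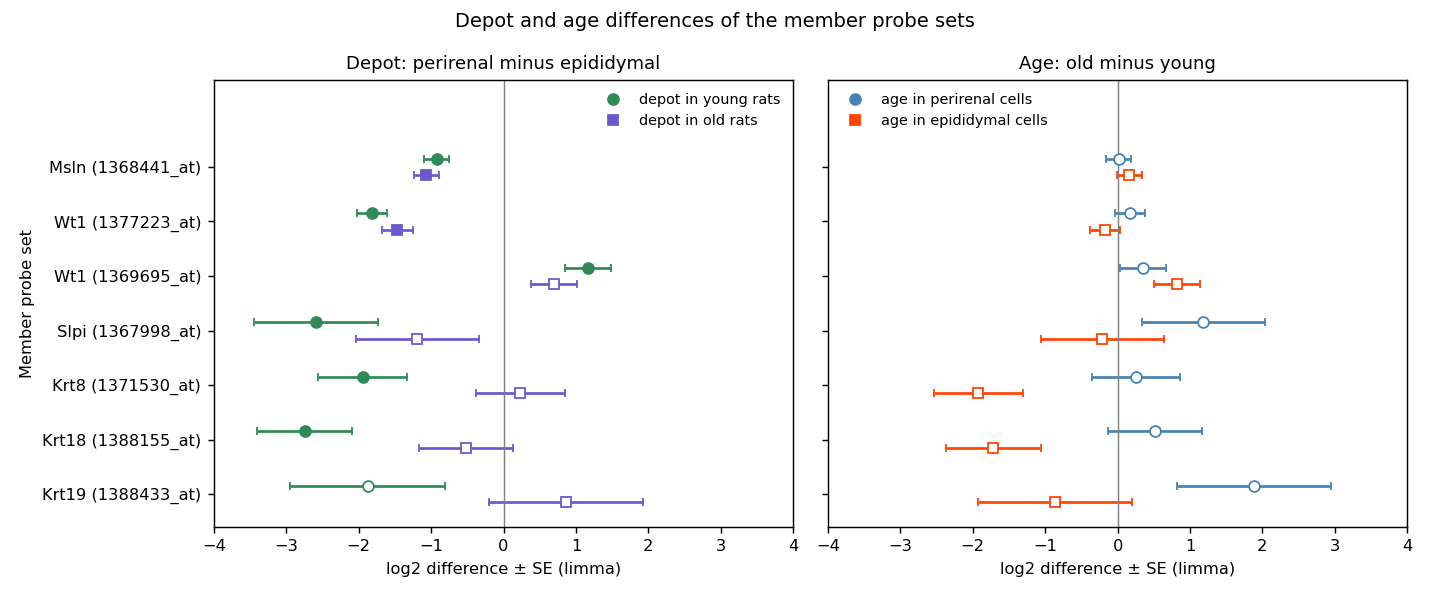
Log2 differences of the 7 member probe sets with standard errors (horizontal axis), perirenal minus epididymal cells at each age (left) and old minus young cells in each depot (right), from limma; Krt18 and Krt19 come from the fit without the filter on low signals. Filled symbols passed an adjusted p of 0.05, which 6 of 7 did in young and 2 of 7 in old rats between depots and 0 did between ages.

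With age, no member passed the threshold in either depot. In perirenal cells 0% of all probe sets passed, with 486 at an unadjusted p under 0.05 (4.38%), and in epididymal cells 0.0720% (8 of 11106) passed, with 927 under it (8.35%). In the fit without the filter, which holds Krt18 and Krt19, these shares were 0% and 0.0315%. The old minus young difference of Msln was 0.02 ± 0.17 SE in perirenal and 0.16 ± 0.17 in epididymal cells, and that of the brighter Wt1 probe set was 0.17 ± 0.21 and -0.17 ± 0.21. The member difference with the smallest p was that of Krt8 in epididymal cells, at -1.92 ± 0.61 (unadjusted p = 0.00749, limma adjusted p = 0.40). It passed only when young rat 1, whose Krt8 signal of 79.6 lay among those of the old rats, was left out (-2.85, adjusted p = 0.0321), and it was -0.07 without the arrays of young rats 2 and 3.

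Krt18 in epididymal cells was -1.71 ± 0.65 between ages (adjusted p = 0.471), with all 3 old signals (28.6 to 65.1) below all 3 young ones (76.6 to 277), an arrangement found in 5.93% of all tested probe sets. The tested probe sets leave out Krt18 and Krt19, so the shares here come from brighter probe sets. The dimmer Wt1 probe set had 0.82 ± 0.32 in epididymal cells (adjusted p = 0.506) and 0.35 ± 0.32 in perirenal cells (adjusted p = 0.999). In perirenal cells its old signals (116.5 to 147) all lay above its young signals (92.9 to 115), as did those of Krt19 (13.2 to 28.6 against 5.0 to 8.3), which 6.10% of tested probe sets did. Slpi had 1.19 ± 0.85 in perirenal and -0.21 ± 0.85 in epididymal cells. The interaction term, which sets the old minus young difference of perirenal cells against that of epididymal cells, was 2.18 ± 0.87 for Krt8 (adjusted p = 0.855) and 2.23 ± 0.92 for Krt18 (adjusted p = 0.865). In that comparison 0% of probe sets passed, with 612 at an unadjusted p under 0.05 (5.51%).

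Whether the members rise on the same arrays was asked within each depot, over 6 arrays from 6 rats. Each gene was represented by its brightest probe set, which gave 15 pairs per depot. In perirenal cells the median r was 0.0795 and 10 of 15 pairs were above 0. In epididymal cells the median r was 0.418 and 12 of 15 were above 0. Over all pairs of tested probe sets the median r was 0.0002 and 0.0057. That background leaves out probe sets under the filter, while the 15 pairs include those with Krt18 or Krt19. Over the 6 pairs of members past the filter the median r was 0.208 in perirenal and 0.20 in epididymal cells. An r of at least 0.8 was found in 2 of 15 pairs in perirenal and 1 of 15 in epididymal cells, against 3.47% and 3.40% of all pairs. At an unadjusted exact permutation p under 0.05 there were 2 pairs in each depot, and after adjustment over the 30 pairs there were 0. A joint rise of all 6 genes was thus not detected with 6 arrays per depot.

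**Figure D3:**
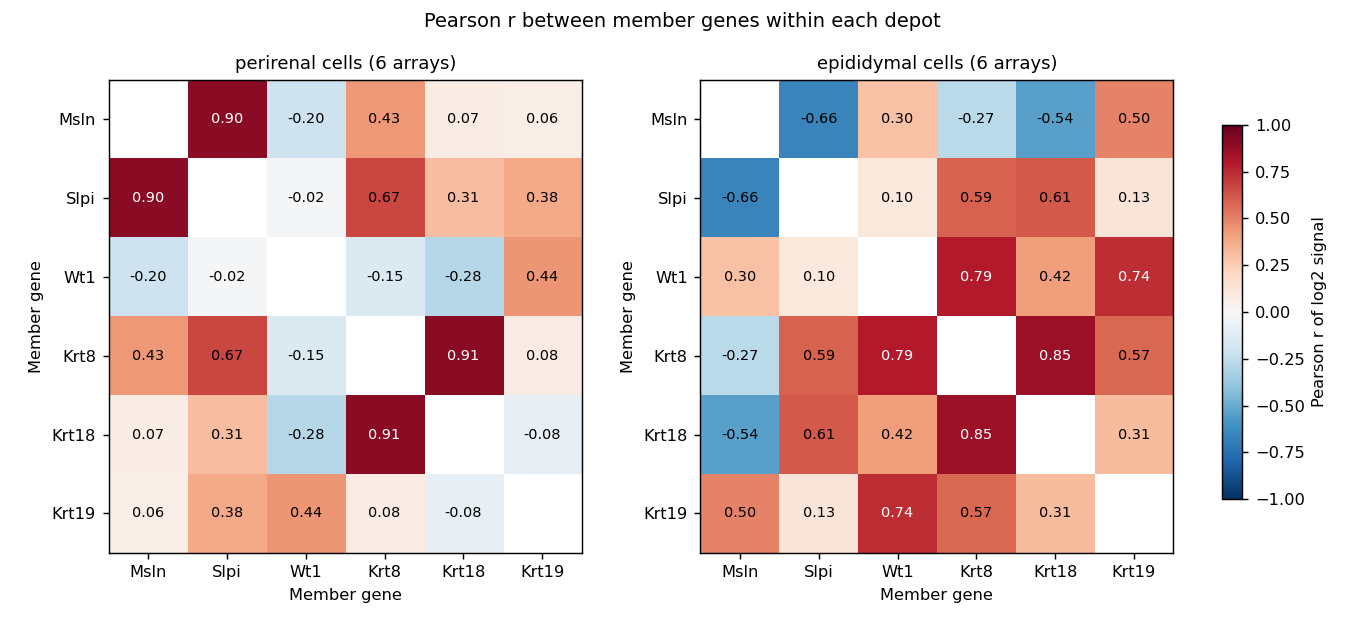
Pearson r of log2 signal between each pair of the 6 member genes over the 6 perirenal arrays (left) and the 6 epididymal arrays (right), 1 probe set per gene, on a scale from -1 to 1. Krt8 with Krt18 is high in both depots, whereas Slpi with Msln is 0.90 in perirenal and -0.66 in epididymal cells.

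By Pearson r with 1 probe set per gene, the closest pair in both depots was Krt8 with Krt18, whose proteins can share a filament. In perirenal cells r was 0.905 (rho = 0.943, exact permutation p = 0.00417, adjusted p = 0.125) and 0.725 without the 2 arrays farthest from the median of Krt8. In epididymal cells r was 0.854 (rho = 0.657, exact p = 0.0375, adjusted p = 0.281) and -0.0501 without the arrays of young rats 2 and 3, so there the relation rests on those arrays. Krt19 did not follow either gene closely, with r = 0.0795 and -0.0787 to Krt8 and Krt18 in perirenal and 0.572 and 0.313 in epididymal cells (exact p of 0.283 or more).

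Slpi and Msln had r = 0.901 in perirenal cells (rho = 0.771, exact p = 0.0278, adjusted p = 0.281; 0.794 without the 2 extreme arrays) and r = -0.659 in epididymal cells (rho = -0.60, exact p = 0.158). Msln spans only 379 to 455.5 in perirenal cells while Slpi spans 293 to 3414. Wt1 and Krt8 had r = 0.794 in epididymal cells with the same rank order on all 6 arrays (rho = 1.0, exact p of r = 0.0292, adjusted p = 0.281; 0.837 without the 2 extreme arrays), but r = -0.148 in perirenal cells. Msln had r below 0 with Slpi, Krt8 and Krt18 in epididymal cells (-0.659, -0.272 and -0.54). The dimmer Wt1 probe set ranked the perirenal arrays as Krt19 did (r = 0.942, rho = 1.0, exact p = 0.00139, adjusted p = 0.0584 over all 42 pairs of member probe sets) and had r = -0.262 with it in epididymal cells. That exact p is the smallest that 720 pairings allow, so a single pair could not pass after adjustment over 42 pairs, however close.

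A rat that was high in 1 depot was not shown to be high in the other. Over the 6 rats, r between depots ran from -0.648 for the brighter to 0.795 for the dimmer Wt1 probe set (rho = 0.829, exact p = 0.05, adjusted p = 0.35; 0.156 without the 2 extreme rats). It was 0.00814 for Krt8 and 0.0402 for Krt18. Within depots no member was shown to follow the actin 3' to 5' ratio at an exact p under 0.05, and the lowest was 0.189 for Krt8 in perirenal cells (r = -0.623, rho = -0.543, adjusted p = 0.976 over 14 tests). In epididymal cells r for Krt8, the brighter Wt1 and Krt19 was 0.083, 0.10 and -0.365. Without the 2 arrays farthest from the median ratio it was -0.868, -0.937 and -0.996, which was not tested. For Slpi, Krt18 and Msln it was then -0.266, -0.426 and -0.54, and for the dimmer Wt1 0.251. The 2 epididymal arrays with high keratins had actin ratios of 5.25, the lowest of that depot, and 38.2, the second highest. Their dap signals of 493 and 573 were the lowest of the epididymal arrays, and the part of this in the keratin signals was not tested.

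The genes with patterns most like each member were taken by Pearson r over the 12 arrays after each depot's mean was subtracted, a description of likeness over arrays that share rats and scaling. Nearest to Slpi was Mmp3, stromelysin 1, a secreted matrix metalloprotease, with r = 0.965 (0.973 over perirenal and 0.971 over epididymal arrays). Mmp3 read 44.5, 926 and 75.2 in young perirenal, 132, 480.2 and 4187 in old perirenal, 54.5, 756 and 778 in young epididymal and 93.0, 221 and 521 in old epididymal cells. The rats therefore held nearly the same order for both genes within a depot, while the level of Mmp3 did not differ between depots past the threshold (0.21 ± 0.96 SE, adjusted p = 0.867). Aldh16a1 (0.916) and Parp1 (0.914), which codes for a poly(ADP-ribose) polymerase, came next.

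**Figure D4:**
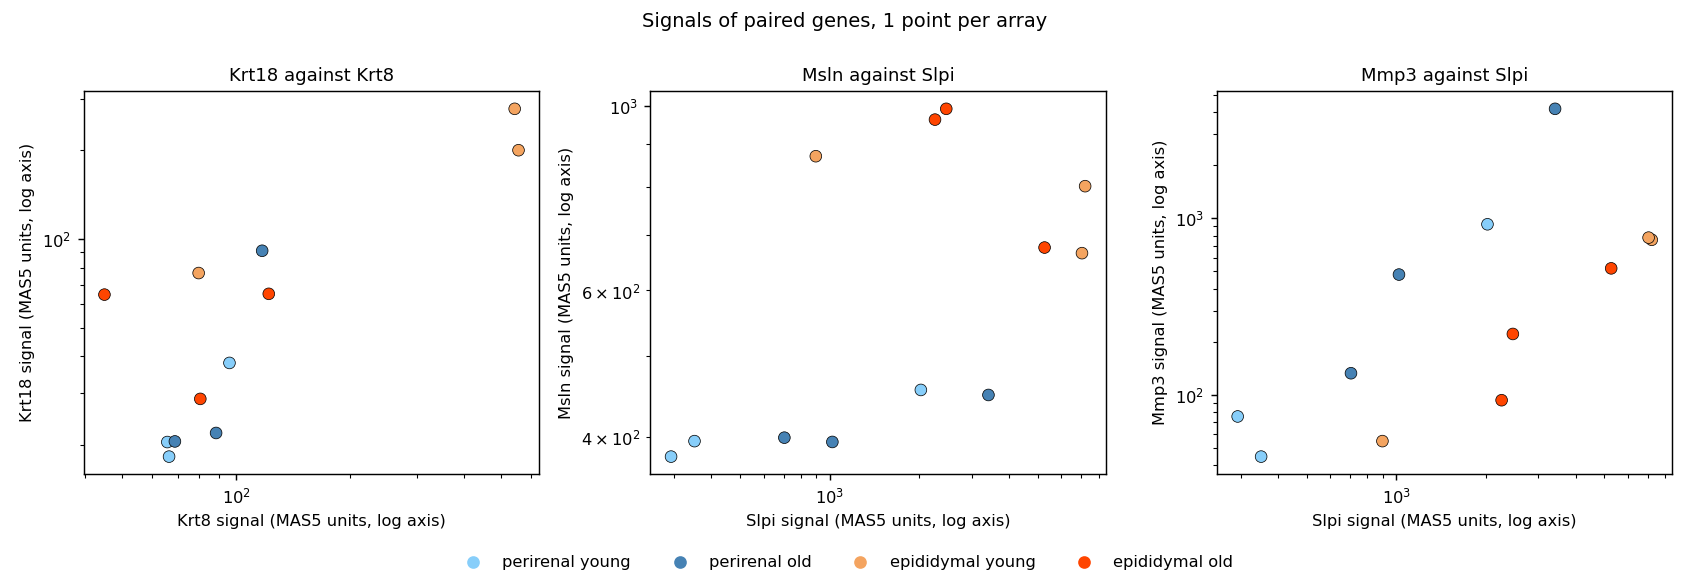
Signals of Krt18 against Krt8, of Msln against Slpi and of Mmp3 against Slpi on log axes (MAS5 units), with 1 point per array coloured by group. Krt8 exceeds 500 on 2 epididymal young arrays only, Msln splits by depot whatever the level of Slpi, and Mmp3 follows Slpi along a separate line in each depot.

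Nearest to Krt18 were Smc3, a cohesin subunit (r = 0.927), Entpd2, an ectonucleotidase (0.924), and Tubb5, a beta-tubulin (0.896). Nearest to Krt8 was Sparcl1, a matricellular glycoprotein, at 0.956, which was high on the epididymal arrays of young rats 2 and 3 too (211 and 162, against 49.9 to 91.8 on the other 4). Over perirenal arrays its r with Krt8 was only 0.508. Nearest to Wt1 were Swi5 (0.888), Ctr9 (0.877) and Gata2, a zinc finger factor (0.876). Msln was followed most closely by Leprot (0.928), Cux1 (0.921) and Lzic (0.919), and Krt19 by Pmfbp1 (0.894). For the mean of the 4 tested genes the lower of the depot values of r was highest for Tubgcp3 (0.873), Stimate (0.868) and Mecr (0.863).

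Averaged over ages, other genes of mesothelium did not share 1 direction between depots. Of 30 listed mesothelial markers 21 were on the array and 12 were tested, with 2 higher and 5 lower in perirenal cells. Without the members these were 2 higher and 2 lower of 8, with 30.2% and 21.4% of all probe sets called in these directions. Aldh1a2, which makes retinoic acid, was lower in perirenal cells (-2.94 ± 0.26 SE, adjusted p = 2.64e-06), as was the transcription factor Tcf21 (-1.15 ± 0.16, adjusted p = 8.45e-05). Gpnmb, a transmembrane glycoprotein, was higher (1.06 ± 0.24, adjusted p = 0.00262), as was the matrix protein gene Efemp1 (1.08 ± 0.27, adjusted p = 0.00527). Pdpn, coding for podoplanin, had -0.04 ± 0.18 (adjusted p = 0.865). Calb2, calretinin, was under the filter and had higher signals in perirenal (79.5 to 185) than in epididymal cells (4.4 to 56.5), opposite to Msln. Dim probe sets as a class read higher on perirenal arrays, with lower quartiles of 58.1 to 61.7 there and 33.0 to 46.1 on epididymal arrays. The part of this in the Calb2 signals was not tested. The 15 markers other than the members summed to between 4635 and 7432 in perirenal and between 6043 and 8221 in epididymal cells. Upk3b, Lrrn4 and Muc16 were not matched to a probe set. The mesothelial label thus describes what the genes are known for. With 1 probe set per gene, the listed genes called between depots lay in both directions averaged over ages and in old rats. In young rats 0 were higher and 6 lower of the 12 tested, or 0 and 2 of 8 without the members. Of all probe sets 20.0% were called higher and 14.9% lower there.

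The other keratins were mostly dim. Besides the members 12 keratins were on the array and 7 were tested, of which 3 were higher and 0 lower in perirenal cells, with 30.2% and 21.4% of all probe sets called in these directions. These were Krt1 (1.38 ± 0.34 SE, adjusted p = 0.00425), Krt12 (0.89 ± 0.26, adjusted p = 0.0122) and Krt36 (1.07 ± 0.34, adjusted p = 0.0182), all dim, with highest signals of 168, 108 and 114. Since dim probe sets as a class read higher on perirenal arrays, these calls may share in that, which was not tested. Of the 12 keratins 2 (16.7%), Krt1 and Krt36, had their 2 highest epididymal signals on the arrays where Krt8 and Krt18 did, as did 8.42% of all probe sets. The margins were small (45.5 against 41.0 for Krt1 and 52.6 against 47.6 for Krt36), and the other keratins of the list did not follow. Krt10 (-0.37 ± 0.28, adjusted p = 0.277) and Krt20 (-0.34 ± 0.36, adjusted p = 0.447) did not pass. Krt7, a type II keratin of simple epithelia and mesothelium, read 252 to 664 in perirenal and 360.3 to 1195 in epididymal cells and did not pass (-0.72 ± 0.31, adjusted p = 0.071). Summed over the 12 keratins other than the members, the signal ran from 1005 to 1554 in perirenal and from 762.5 to 1742 in epididymal cells. Among the other intermediate filament and linker genes 5 were higher and 4 lower of 11 tested, against the same 30.2% and 21.4% of all probe sets. Vim, vimentin, was at -0.85 ± 0.06 (adjusted p = 8.39e-07), Des, desmin, at -1.51 ± 0.29 (adjusted p = 0.000919) and Synm, synemin, at 1.48 ± 0.23 (adjusted p = 0.0002).

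Several epithelial junction genes were high on the arrays where Krt8 and Krt18 were high. Cdh1, which codes for E-cadherin, had signals of 100.2 and 75.7 in epididymal cells of young rats 2 and 3 and of 2.4 to 7.1 on the other 10 arrays. Cdh16, the kidney-type cadherin, had 161 and 97.1 there and 3.6 to 54.9 elsewhere. Cldn4, a tight junction claudin, had 78.6 and 124 against at most 26.1 elsewhere. Epcam, an epithelial adhesion molecule, had 165 and 112 against at most 58.6. Dsp, desmoplakin, had 193 and 128 against 66.9 to 74.3 on the other epididymal arrays, but its perirenal signals of 137.5 to 199 were as high.

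Others did not follow. Ocln, occludin, was lowest on the same arrays (3.4 and 3.1, against 23.2 to 76.5 elsewhere), as was Pkp2, plakophilin 2, with 6.4 and 4.0 against 7.7 to 67.8 elsewhere. Cldn7 read 5.3 and 4.0 there, and Cldn3 read 23.7 and 19.4. In all, 8 of 31 junction genes (25.8%) had their 2 highest epididymal signals on these arrays, as did 8.42% of all probe sets. The arrays were defined by the 2 highest Krt8 signals, so Krt8 matches by definition. Of the other member probe sets Slpi, Krt18 and the brighter Wt1 matched, Wt1 by a small margin (1096 and 1119 against 1034 and 1037). These counts were chosen after the signals were seen and are a description. Cdh1, Cdh16, Cldn4, Epcam, Ocln and Pkp2 are under the filter and were not tested. Of the 13 junction genes tested, 3 were higher and 5 lower in perirenal cells, with 30.2% and 21.4% of all probe sets called in these directions. Among them were Cdh2, N-cadherin (-1.23 ± 0.15, adjusted p = 2.7e-05), Spint2, a membrane protease inhibitor (-1.48 ± 0.27, adjusted p = 0.000592), and Itga6, an integrin chain (1.64 ± 0.35, adjusted p = 0.0018).

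**Figure D5:**
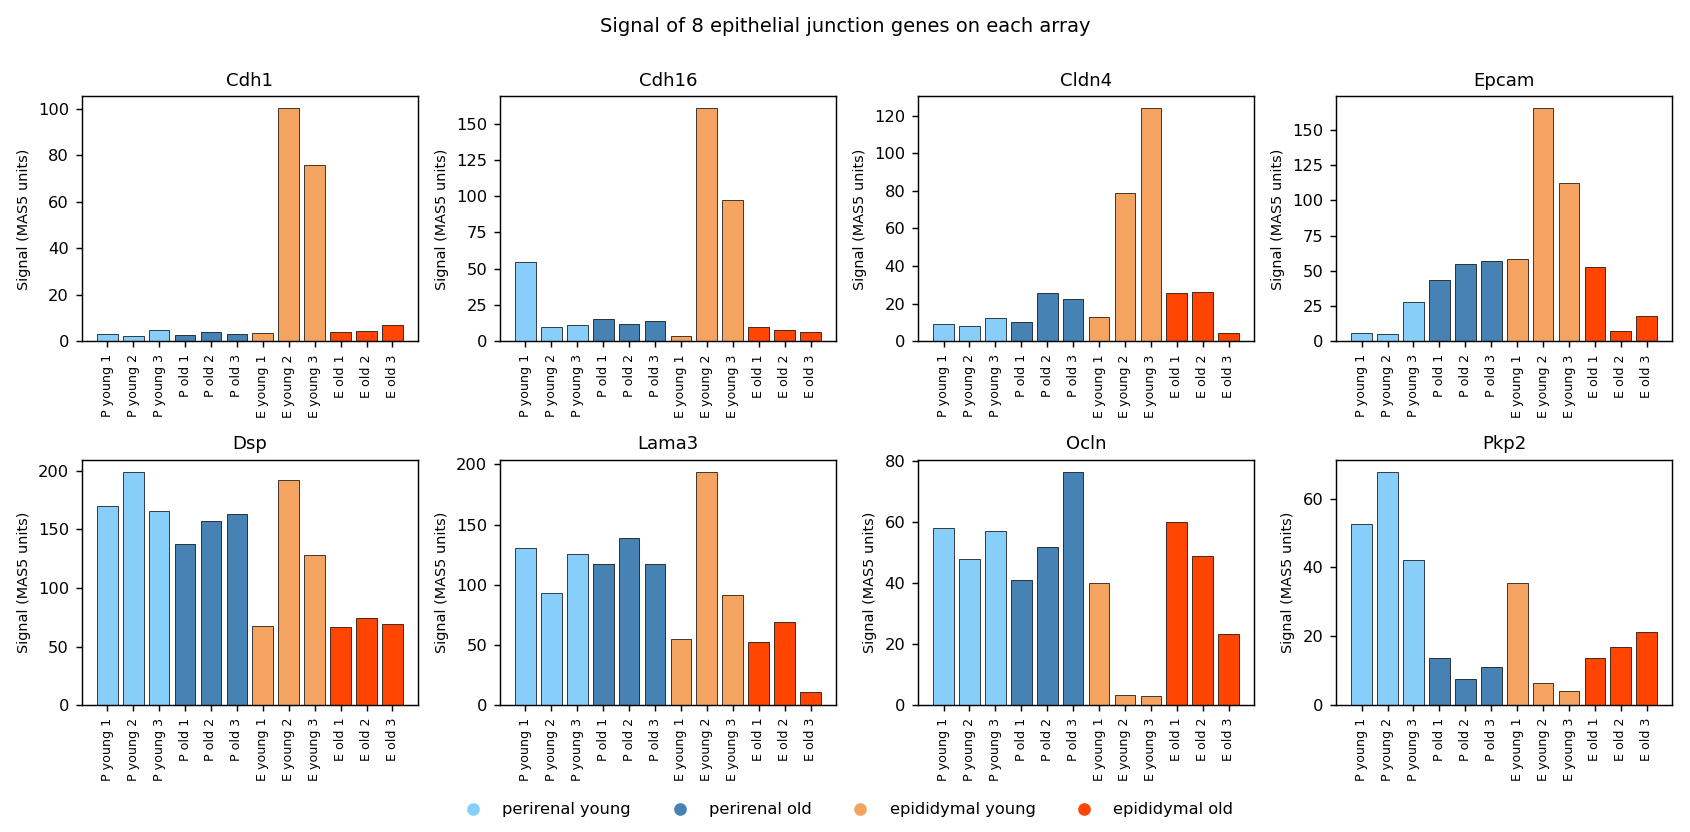
Signal (vertical axis from 0, MAS5 units) of 8 epithelial junction genes on each of the 12 arrays, 1 bar per array coloured by group, chosen after the signals were seen. Cdh1, Cdh16, Cldn4 and Epcam peak on the epididymal arrays of young rats 2 and 3, where Ocln and Pkp2 have their lowest signals.

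Of 26 renal, adrenal and epididymal epithelial markers on the array, 2 (Cdh16 and Cyp21a1) had their highest epididymal signals on those same arrays, a share (7.69%) near the 8.42% of all probe sets. Of the 9 tested, 4 were higher and 2 lower in perirenal cells, with 30.2% and 21.4% of all probe sets called in these directions. Both probe sets of Star, which carries cholesterol to the first step of steroid hormone production, were lower in perirenal cells (-2.23 ± 0.22 SE and -0.94 ± 0.18, adjusted p = 4.62e-06 and 0.000681), the direction of Msln, and Aqp1, a water channel, was higher (1.86 ± 0.37, adjusted p = 0.00115). On the epididymal arrays of young rats 2 and 3 Star read 802 and 576 with 1368406_at, the lowest of that depot. Nr5a1, the steroidogenic factor, read 1.8 to 3.7 on all arrays. The list summed to between 2871 and 3614 in perirenal and between 2371 and 3817 in epididymal cells, and its part in the member signals was not tested.

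Among secreted protease inhibitors, the class of Slpi, 4 were higher and 7 lower of 20 tested besides Slpi. Of all probe sets 30.2% were called higher and 21.4% lower in perirenal cells. Tfpi2 (-1.38 ± 0.18 SE, adjusted p = 5.07e-05) and Timp1 (-0.71 ± 0.11, adjusted p = 0.000128) were lower and Serpina1, alpha-1-antitrypsin, was higher (1.21 ± 0.22, adjusted p = 0.000558). Of the macrophage and leukocyte markers 6 were higher and 0 lower in perirenal cells of 13 tested, against the same shares of all probe sets. Cd14 led them (2.85 ± 0.14, adjusted p = 5.18e-08), and the list summed to 2528 to 5154 in perirenal and 1578 to 2692 in epididymal cells. The labels state that macrophage markers were alike across depots, while these 6 read higher in perirenal cells averaged over ages. Of the 13, 2 were higher and 1 lower in young rats (20.0% and 14.9% of all probe sets). In old rats 4 were higher and 0 lower (19.2% and 12.5%). Cd14 alone read 739 to 943 in perirenal and 88.9 to 143 in epididymal cells. Cd53 and Laptm5 were dim, with highest signals of 197.5 and 223. Dim probe sets as a class read higher on perirenal arrays, and the part of this here was not tested. The perirenal arrays highest in Slpi, those of old rat 3, young rat 2 and old rat 2 (3414, 2024 and 1021), were also the highest in Cd68 (303, 170 and 256), Fcer1g (668, 354 and 442) and Lyz2 (693, 455 and 1319). Of 29 such markers, 7 (24.1%) had their 3 highest perirenal signals on these arrays, as did 6.77% of all probe sets. Others did not: Cd14 had its lowest perirenal signal in old rat 3 (739, against 775 to 943 in the others), and Aif1 was highest in young rat 3 and old rat 1 (267 and 248). These genes were picked after their values were seen, their part in Slpi was not tested, and Ptprc, the common leukocyte antigen, read 14.1 to 49.9 on all arrays.

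Fibroblast and preadipocyte markers were bright in every group, with a summed signal over 29 genes of 143900 or more on each array. Of 27 tested, 4 were higher and 15 lower in perirenal cells, with 30.2% and 21.4% of all probe sets called in these directions. Among the lower were Pcolce (-0.83 ± 0.07 SE), Col1a1 (-0.84 ± 0.08) and Col1a2 (-0.91 ± 0.09), the direction of Msln. Of the mesenchymal transition factors 7 were higher and 4 lower of 12, against the same shares, with Prrx1 at 3.33 ± 0.28 and Tgfb2 at -2.20 ± 0.31. Smooth muscle markers were lower in 12 and higher in 1 of 16, and endothelial markers higher in 3 and lower in 1 of 6, again against these shares. In none of these lists did a gene pass the threshold between ages in either depot, as for the members.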

How the data were processed

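Per the labels, RNA of the 12 cultures was primed with oligo-dT and given a biotin label. The deposited values are intensity values, 1 linear signal per probe set and array, and MAS5 is named without a version in the submitters' processing notes. MAS5 parameters were not stated in the sources used here. Replicates were separate rats. The table held 15923 probe sets, of which 57 controls were left out. The log2 of each signal was taken with no offset added, after 0.1 (the smallest value above 0) had replaced 2 zeros. The dimmest 30% of probe sets (those with a geometric mean under 56.3) were left out, and 11106 were tested with limma 3.58.1 (R 4.3.3): 1 term per group on all 12 arrays, an intensity trend, and Benjamini-Hochberg adjustment over all tested probe sets at 0.05. Differences are perirenal minus epididymal and old minus young, and errors are limma's standard errors. Krt18 and Krt19 come from the same fit without the filter. Correlations were tested by exact permutation of all 720 pairings, two-sided, with adjustment over the pairs. The fits and correlations were tested on simulated data.

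The rat number pairs the depots, since the labels give the same animal; the deviations of its arrays correlated by 0.0393 to 0.201. Fits with the rat as a block, other normalizations and filters, an offset of 50, no trend, the actin ratio as a covariate and each rat left out were alternatives. Other genes named are those past the threshold with the smallest p in each list, the genes of most like pattern, and genes said to be picked after their values were seen. The members and the lists were chosen with earlier results of these data known.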

Additional observations from a re-analysis of the deposited data

How the results depend on the processing

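Of 594 member values under the alternatives, 533 kept their direction and their side of the threshold, 33 lost a call, 3 gained one and 25 changed sign. Values of results that had not passed, among them every age and interaction result, could not lose a call. The 33 are therefore not to be read as a share of the 594. The cause of these changes was not tested. Called probe sets numbered 5738 between depots averaged over ages, 3880 in young and 3528 in old rats. With the actin ratio as a covariate they numbered 274, 412 and 32. With the epididymal arrays of young rats 2 and 3 left out (chosen after seeing the data) there were 2395 in young rats, 29 with age in epididymal cells and 3 in the interaction, against 3880, 8 and 0. With age in perirenal cells 0 were called (486 at an unadjusted p under 0.05 in limma), and 1 with an offset of 50 and 1 with the 6 arrays of that depot alone. In epididymal cells 8 were called, but 0 after quantile normalization, 5 without a filter, 0 with an offset of 50, 1 without the intensity trend and 0 with the 6 arrays alone. With 1 rat left out the counts ran from 2305 (without young rat 3) to 3894 for young rats, from 1826 (without old rat 2) to 3496 for old rats, and with age from 0 to 2 in perirenal and from 0 to 9 in epididymal cells.

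With the rat as a fixed block, the pairing the labels give, 5754 probe sets were called between depots averaged over ages, 3927 in young and 3612 in old rats, and 0 in the interaction. As a random block the rat gave 6013, 4209 and 3923, with 0 for age in perirenal cells, 6 for age in epididymal cells and 0 in the interaction. The block changed no call of a member.

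Changes of sign were limited to member differences that had not passed. With the actin ratio as a covariate the depot difference of Krt8 averaged over ages was 0.064, and in old rats those of Krt18 and Krt19 were 0.025 and -0.99. Quantile normalization gave -0.358 for Krt8 in old rats. Without the epididymal arrays of young rats 2 and 3 the depot difference averaged over ages was 0.072 for Krt8 and 0.117 for Krt19. In the same fit the age difference in epididymal cells was 1.779 for Slpi, -0.01 for Msln and 0.392 for Krt19, and the interaction was -0.594 for Slpi and 0.027 for Msln.

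With 1 rat left out, the depot difference in old rats ran from -0.14 to 0.461 for Krt8, from -1.022 to 0.003 for Krt18 and from -0.449 to 1.713 for Krt19, and that of Krt19 averaged over ages from -1.164 to 0.18. With age in perirenal cells the ranges were -0.042 to 0.096 for Msln, -0.024 to 0.323 for Wt1 (1377223_at) and -0.188 to 0.888 for Krt18. With age in epididymal cells they were -1.208 to 0.294 for Slpi and -1.509 to 0.392 for Krt19.

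Pairs of members at an unadjusted exact permutation p under 0.05 numbered 2 in each depot and 1 in epididymal cells with an offset of 50. Without 1 rat they numbered from 1 to 4 in perirenal and from 0 to 3 in epididymal cells. Across the depots of a rat 0 members passed, and 1 after quantile normalization. The median r in perirenal cells, 0.0795, was -0.0361 on deviations from the mean of each age.

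Signals of Krt18, Krt19 and Cdh1 are dim, and detection calls were not used here, so whether their low values lie above background was not analysed. A filter on the dimmest 50% leaves out Krt8 and the dimmer Wt1 probe set.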
